A study of Mus musculus with 12 samples.

Results

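The genes described here encode subunits of the mitochondrial respiratory chain and of ATP synthase, read on arrays of mouse ovaries and testes. The study removed Foxl2, a transcription factor that granulosa cells need to keep their identity. They were chosen by symbol: Nduf for complex I, Sdh for complex II, Uqcr for complex III, Cox4 to Cox8 for complex IV and Atp5 for complex V. By this rule 81 of the 19938 genes with a probe set of their own in the adult table were members, and so were 81 of 18194 genes in the table of postnatal day 3 (P3). Of the 84 genes found in either table, 78 were in both. Cox7b, Ndufa11 and Ndufs6 were read on the adult arrays alone, and Cox7c, Ndufb1 and Ndufb4 on the P3 arrays alone. Each table held 35 genes of complex I, 4 of complex II, 8 of complex III, 17 of complex IV and 17 of complex V.

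Each adult array came from 1 animal aged 8 weeks, and there were 3 ovaries labelled as Foxl2 flox/flox x CreEBD, 3 wild-type testes and 2 wild-type ovaries. For P3 there were 2 arrays of Foxl2 KO ovaries and 2 of wild-type ovaries, each made from a pool of more than 10 females. The labels give neither the promoter that drives Cre nor the time of deletion, and they name no treatment for any group. Adult organs were perfused with saline and P3 ovaries were not.

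Complexes I to IV pass electrons from NADH and succinate to oxygen and move protons across the inner mitochondrial membrane, and complex V (ATP synthase) makes ATP from the return flow. Most of their subunits are nuclear genes that every cell uses, but several complex IV subunits exist in a common form and in a form restricted to testis, heart, skeletal muscle or lung. In the gonads the same organelle also holds the first step of steroid synthesis, which takes place in the mitochondria of theca, luteal and Leydig cells.

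Adult values are RMA levels on a log2 scale, P3 values are linear MAS5 signals, and a difference is always given as log2, with ± for its standard error in the limma fit. The test was passed where the adjusted p (Benjamini-Hochberg, over every gene of the table) was under 0.05, and only then is a gene said to have risen or fallen. No test was made between the 2 tables. Foxl2 itself was lower in the mutant than in wild-type ovary in both sets (-2.92 ± 0.13 in adults and -2.18 ± 0.21 at P3). Markers of the labelled tissue were checked, and 12 of 12 spermatocyte and spermatid markers were higher in testis than in wild-type ovary, with a mean level of 10.80 to 10.91 in the testes and 3.85 to 3.88 in the wild-type ovaries. The 2 wild-type ovaries stood apart from each other. Corpus luteum markers had a mean level of 8.20 to 9.71 in the mutant ovaries, against 8.53 to 10.53 in the wild-type ovaries, and oocyte markers one of 6.76 to 6.95 against 5.51 to 7.14. Wild-type ovary 2 had the higher level of the pair for 64 of 81 members (median of ovary 1 minus ovary 2 -0.18, against 0.02 over all genes). The median of the members against wild-type ovary is therefore also given without each of the 2. In whole organs, fewer cells of a type and less RNA per cell cannot be told apart.

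In adult testis more members of the chain fell than rose against wild-type ovary, while a small set of testis forms was far higher. Of 81 members 37 fell and 13 rose, against 35.9% and 24.4% of all genes. The median difference of the members was -0.34, against -0.15 over all genes. At a difference of at least 2-fold, 15 of 81 members fell, near the 18.4% of all genes, and 4 rose, against 16.3%. For some ovarian and other somatic cells every measured marker fell in the same comparison. These were 7 of 7 for granulosa cells (mean level 5.19 to 5.35 in the testes, against 9.50 to 10.16 in the wild-type ovaries), 3 of 3 for corpus luteum (3.49 to 3.55, against 8.53 to 10.53) and 4 of 4 for endothelium (4.66 to 4.74, against 7.36 to 8.08). All 5 leukocyte markers (4.86 to 4.98, against 6.54 to 6.59) and all 5 pericyte markers (4.59 to 4.70, against 6.16 to 6.97) fell too. Other lists were mixed. Of 9 Sertoli markers 5 rose and 2 fell, and of 5 Leydig and theca markers 2 rose and 2 fell. Smooth muscle had 1 rise and 4 falls among 5 markers, and adipocyte and striated muscle lists each had 1 rise and 2 falls among 7. Of 8 oocyte markers 7 fell and none rose. The part of this cell makeup in the falls of the chain was not tested.

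The counts by complex are a description, and the difference between complexes was not tested. None of the 17 ATP synthase genes rose and 11 fell, and all 17 differences were negative (-2.23 to -0.04, median -0.71). All 4 genes of complex II, the succinate dehydrogenase that also serves the citric acid cycle, fell by small amounts (-0.67 to -0.34). In complex I 11 of 35 fell (31.4%) and 7 rose (median -0.05), in complex III 3 of 8 fell (37.5%) and 1 rose (12.5%), and in complex IV 8 of 17 fell and 5 rose. Complex IV held both the highest and the lowest difference of all members.

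**Figure D1:**
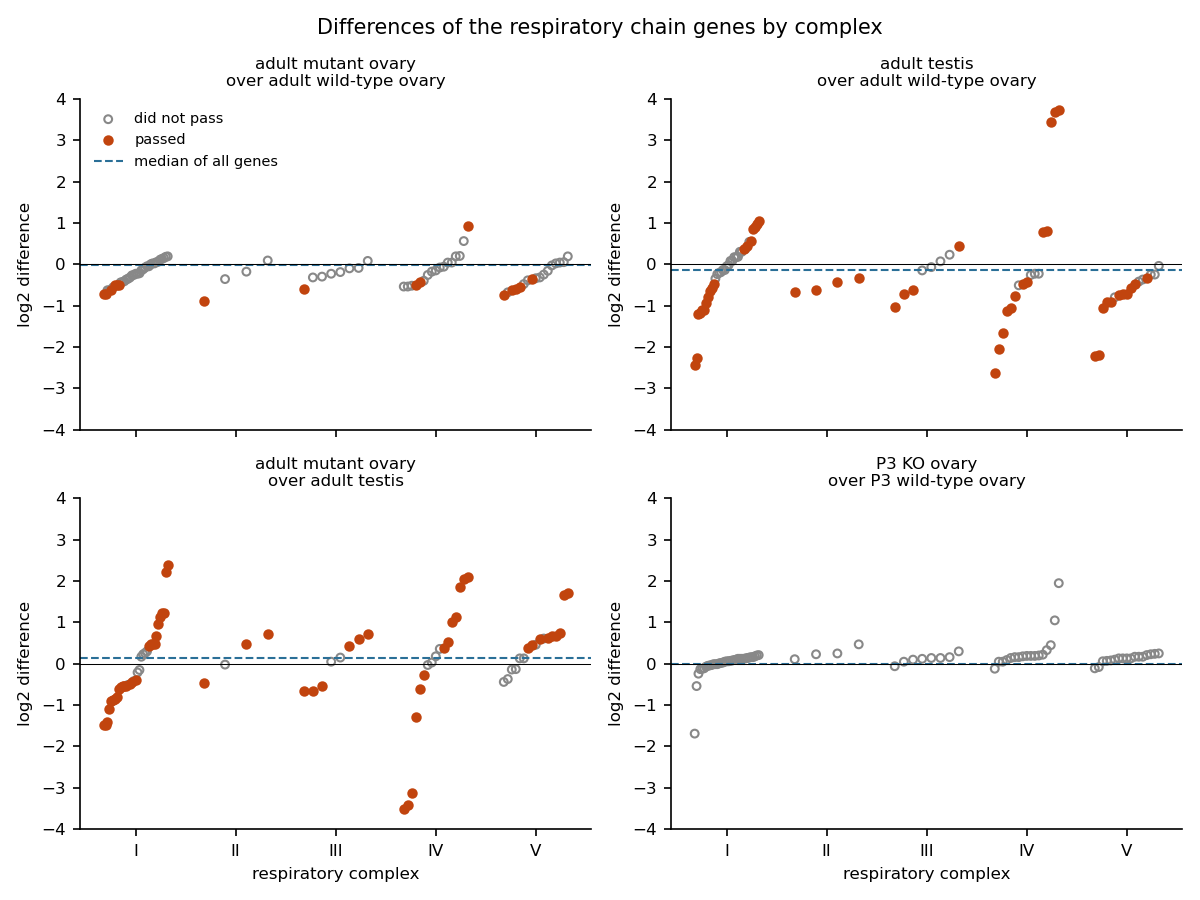
Log2 differences of the respiratory chain genes (vertical axis) by complex (horizontal axis) in the 4 comparisons, one point per gene ordered by size within its complex, filled where the gene passed the limma test and open where it did not. The dashed line is the median of all genes: complex IV spans -2.64 to 3.72 in testis over wild-type ovary, and no point is filled at P3.

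The lowest differences among the ATP synthase genes were those of 2 genes for subunit c, Atp5g2 and Atp5g3. Subunit c forms the rotating ring in the membrane, and Atp5g1, Atp5g2 and Atp5g3 encode the same mature protein behind different import signals. Atp5g2 had levels of 8.04, 8.13 and 8.10 in the testes, against 10.43 and 10.22 in the wild-type ovaries (-2.23 ± 0.15, limma adjusted p = 3.07e-07). Its other 2 probe sets gave -2.23 and -2.16. Atp5g3 had levels of 8.17, 8.42 and 8.29 in the testes, against 10.45 and 10.53 in the wild-type ovaries (-2.19 ± 0.17, limma adjusted p = 1.14e-06). For Atp5g1 the levels were 7.12, 7.33 and 7.18 in the testes, against 7.65 and 7.94 (-0.58 ± 0.16, limma adjusted p = 0.00785). In all 3 genes each testis lay below both wild-type ovaries. The catalytic subunits fell too, with Atp5a1 (alpha) at -0.91 ± 0.10 and Atp5b (beta) at -0.49 ± 0.09, and so did the subunits of the central stalk, Atp5c1 (gamma, -0.74 ± 0.11), Atp5d (delta, -1.07 ± 0.10) and Atp5e (epsilon, -0.72 ± 0.16).

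Complex I moved both ways. Its counts and medians were made by symbol and so include Ndufa4 and its relative Ndufa4l2. Ndufa4, first purified with complex I and now counted with cytochrome c oxidase, had levels of 7.56, 7.85 and 7.74 in the testes, against 9.93 and 10.36 in the wild-type ovaries (-2.43 ± 0.18, limma adjusted p = 8.74e-07). Ndufb11, an accessory subunit of the membrane arm encoded on the X chromosome, had levels of 6.06, 6.01 and 6.17 in the testes, against 8.18 and 8.54 in the wild-type ovaries (-2.28 ± 0.17, limma adjusted p = 9.05e-07). In both genes the groups were separated by more than 2 log2 units. Ndufv2, an iron-sulfur subunit of the arm that takes electrons from NADH, went the other way, with 9.14, 9.28 and 9.37 in the testes, against 7.99 and 8.44 in the wild-type ovaries (1.05 ± 0.15, limma adjusted p = 0.000123). So did the accessory subunit Ndufa5, with 7.55, 7.43 and 7.56 in the testes, against 6.46 and 6.64 (0.97 ± 0.16, limma adjusted p = 0.000412). The groups of these 2 genes did not overlap either. The other rises in complex I were those of Ndufa12 (0.91), Ndufa4l2 (0.85), Ndufs6 (0.55), Ndufa9 (0.45) and Ndufb5 (0.36).

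The X chromosome carries 3 of the adult members, Cox7b, Ndufb11 and Ndufa1, and all 3 fell in testis by at least 2-fold. Of 742 X-linked genes on the adult array, 46.4% fell and 20.9% rose in the same comparison, 229 and 105 of them by at least 2-fold. Ndufa1, an accessory subunit of complex I, had levels of 7.12, 7.38 and 7.31 in the testes, against 8.36 and 8.40 in the wild-type ovaries (-1.11 ± 0.19, limma adjusted p = 0.000522).

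The testis forms of complex IV were the highest members in testis. Cox8c, the testis form of the small subunit 8, had levels of 8.67, 8.87 and 8.86 in the testes, against 4.85 and 5.30 in the wild-type ovaries (3.72 ± 0.17, a 13.2-fold difference, limma adjusted p = 1.4e-08). Cox6b2, the testis form of the subunit that joins the complex IV dimer, had levels of 9.23, 9.12 and 9.26 in the testes, against 6.04 and 5.02 in the wild-type ovaries (3.68 ± 0.29, 12.8-fold, limma adjusted p = 1.32e-06). Cox7b2 had levels of 6.38, 6.32 and 6.72 in the testes, against 2.95 and 3.09 in the wild-type ovaries (3.45 ± 0.17, 10.9-fold, limma adjusted p = 3.37e-08). Each testis stood above both ovaries by more than 3 log2 units in all 3 genes. Each gene passed under every alternative that included it, and Cox7b2 was left out where only genes above the median level were kept. The ovarian levels of Cox7b2 lie below the array medians of 4.83 to 4.94, where RMA compresses differences. In the mutant ovaries the levels were 5.12, 5.48 and 5.24 for Cox8c, 5.84, 6.58 and 5.82 for Cox6b2 and 3.17, 3.23 and 2.79 for Cox7b2, and none of the 3 passed against wild-type ovary (0.20 ± 0.17, 0.56 ± 0.29 and 0.04 ± 0.17).

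The common forms of the same subunits were low where the testis forms were high. Cox7b, the X-linked partner of Cox7b2, had levels of 4.74, 5.15 and 5.30 in the testes, against 7.33 and 8.09 in the wild-type ovaries (-2.64 ± 0.30, limma adjusted p = 2.14e-05). Its second probe set gave -1.75 and that of Ndufb11 -2.09, in the same direction. Cox6b1, the partner of Cox6b2, had levels of 6.57, 6.85 and 6.73 in the testes, against 8.67 and 8.84 (-2.04 ± 0.22, limma adjusted p = 1.29e-05). For Cox8a, the partner of Cox8c, they were 6.24, 6.09 and 6.23 in the testes, against 7.53 and 8.17 (-1.67 ± 0.18, limma adjusted p = 1.53e-05). In these 3 pairs the testis form rose and the common form fell without overlap of the groups. How much of the subunit each form supplies cannot be read from these values, since probe sets of different genes are not on one scale.

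Of the forms known from other tissues, Ndufa4l2 was the one that rose while its partner Ndufa4 fell. Cox7a1, the heart and skeletal muscle form of subunit 7a, had levels of 4.98, 4.94 and 5.10 in the testes, against 5.88 and 6.36 in the wild-type ovaries (-1.12 ± 0.26, limma adjusted p = 0.00317), and its common partner Cox7a2 rose, with 8.58, 8.51 and 8.41 in the testes, against 7.50 and 7.95 (0.77 ± 0.18, limma adjusted p = 0.0039). Both forms of subunit 6a fell: the muscle form Cox6a2 had levels of 4.88, 4.89 and 4.77 in the testes, against 5.29 and 5.37 (-0.48 ± 0.14, limma adjusted p = 0.0127), and Cox6a1 levels of 7.33, 7.60 and 7.61, against 8.43 and 8.73 (-1.06 ± 0.25, limma adjusted p = 0.00326). The fall of Cox6a2 is the call of this set of pairs that was lost under an alternative (adjusted p from 0.0086 to 0.0557). Both forms of subunit 4 fell as well, with Cox4i2, the form known from lung and from low oxygen, at 5.21, 4.90 and 5.17 in the testes, against 5.89 and 5.85 (-0.78 ± 0.14, limma adjusted p = 0.000674), and Cox4i1 at 8.41, 8.59 and 8.43, against 8.87 and 8.97 (-0.44 ± 0.12, limma adjusted p = 0.0102). Ndufa4l2, the relative of Ndufa4 induced by low oxygen, had levels of 5.91, 6.03 and 6.14 in the testes, against 4.97 and 5.38 (0.85 ± 0.19, limma adjusted p = 0.00279). Cox8b, a muscle and brown fat form, stayed below the array medians in every adult array (3.66 to 4.07). Over the 8 tissue forms 4 rose and 3 fell in testis, and over the 7 common forms 1 rose and 6 fell.

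**Figure D2:**
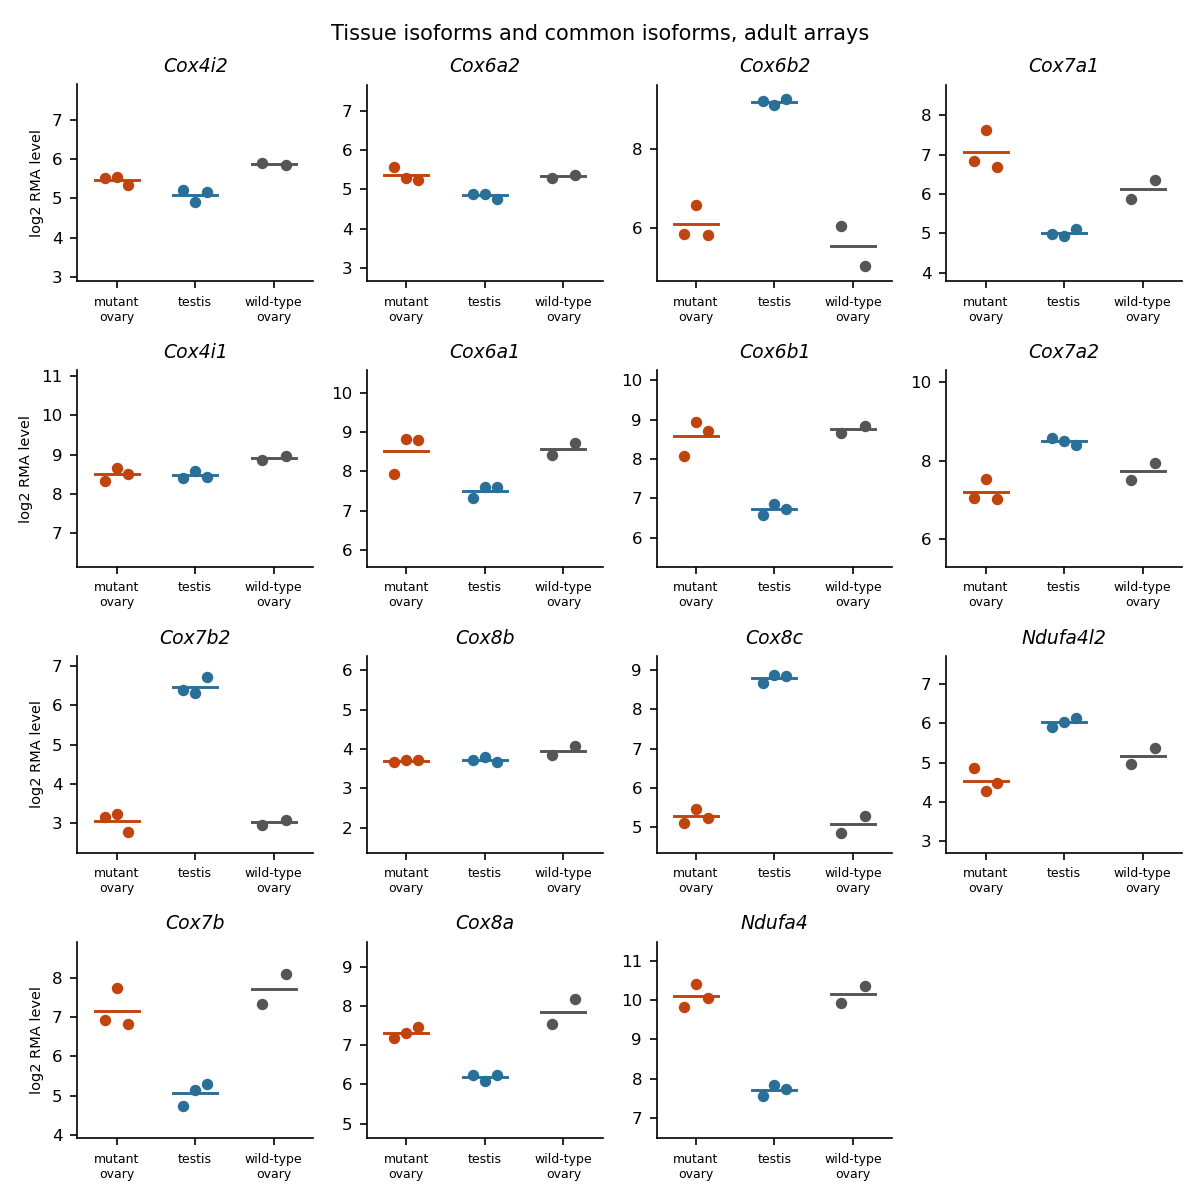
Log2 RMA levels (vertical axis, 5 log2 units high in each panel) of tissue and common isoforms in the 3 mutant ovaries, 3 testes and 2 wild-type ovaries, one point per array with the group mean as a line. Cox6b2, Cox7b2 and Cox8c are high in the testes alone, where Cox6b1, Cox7b, Cox8a and Ndufa4 are low, and the mutant ovaries are the highest group for Cox7a1.

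Promoters are shown for Cox6b2 and Cox7b2, which had the largest rises in testis after Cox8c, and for the 3 members with the largest falls, because these genes moved far in opposite directions. That of Cox8c was not analysed here. They are RefSeq sequences of assembly GRCm38.p6 around the annotated start, written 5′ to 3′ on the gene's strand. Capitals mark CCAAT, the box bound by NF-Y, on either strand (ATTGG on the other). Cox6b2 lies at chr7:4753045-4753344 (minus strand), Cox7b2 at chr5:71548156-71548455 (minus), Cox7b at chrX:106015450-106015749 (plus), Ndufa4 at chr6:11907401-11907700 (minus) and Ndufb11 at chrX:20617570-20617869 (minus).
Cox6b2: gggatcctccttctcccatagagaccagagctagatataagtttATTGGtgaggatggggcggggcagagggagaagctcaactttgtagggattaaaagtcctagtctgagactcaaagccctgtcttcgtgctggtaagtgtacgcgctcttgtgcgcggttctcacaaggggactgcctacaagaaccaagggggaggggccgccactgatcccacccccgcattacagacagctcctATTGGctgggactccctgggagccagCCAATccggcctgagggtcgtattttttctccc
Cox7b2: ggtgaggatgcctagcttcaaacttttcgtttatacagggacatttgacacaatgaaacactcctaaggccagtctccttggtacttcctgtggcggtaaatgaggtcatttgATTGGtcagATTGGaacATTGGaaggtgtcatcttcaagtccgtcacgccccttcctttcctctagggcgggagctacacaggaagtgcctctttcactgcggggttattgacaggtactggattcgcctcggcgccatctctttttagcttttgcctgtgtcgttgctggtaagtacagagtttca
Cox7b: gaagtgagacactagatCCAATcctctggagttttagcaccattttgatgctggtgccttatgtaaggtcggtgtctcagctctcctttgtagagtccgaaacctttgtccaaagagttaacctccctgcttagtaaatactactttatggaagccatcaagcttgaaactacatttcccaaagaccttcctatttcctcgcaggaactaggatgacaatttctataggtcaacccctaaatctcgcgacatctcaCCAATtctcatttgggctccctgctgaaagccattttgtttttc
Ndufa4: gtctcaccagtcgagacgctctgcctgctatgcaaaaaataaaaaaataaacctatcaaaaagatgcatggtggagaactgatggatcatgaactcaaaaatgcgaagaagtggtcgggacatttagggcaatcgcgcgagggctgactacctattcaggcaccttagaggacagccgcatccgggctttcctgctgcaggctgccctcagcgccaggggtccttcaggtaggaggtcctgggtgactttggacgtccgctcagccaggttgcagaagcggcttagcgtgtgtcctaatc
Ndufb11: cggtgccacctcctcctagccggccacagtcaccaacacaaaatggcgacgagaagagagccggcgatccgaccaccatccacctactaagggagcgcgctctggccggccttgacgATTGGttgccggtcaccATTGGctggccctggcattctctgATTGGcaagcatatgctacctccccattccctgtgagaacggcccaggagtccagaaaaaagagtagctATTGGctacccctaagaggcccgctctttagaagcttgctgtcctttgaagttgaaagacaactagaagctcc
The windows of Cox6b2 and Cox7b2 each held 3 CCAAT boxes, that of Ndufb11 held 4, that of Cox7b held 2 and that of Ndufa4 held none, so the box was present in genes that rose and in genes that fell.

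Over all members, promoter windows were found for 69 of 84 genes, and 5 motifs were searched on both strands, with overlapping matches of different motifs counted separately. The site of NRF1, a factor known for the control of respiratory chain genes, was taken as GCGC and TGCGC with 1 base between them and was in 16 of 69 member promoters (23.2%) and in 4.78% of all 27025. CCGGAAG, the site of GABP, was in 16 (23.2%) and in 9.12% of all. ATGGCGG, a site of YY1, was in 9 (13.0%) and in 4.19% of all. Complex I genes were 8 of these 9 and 33 of the 69 member promoters. TGACGTCA, the cyclic AMP response element, was in 4 (5.80%) and in 1.88% of all, and CCAAT in 30 (43.5%) and in 37.9%. None of the 4 tissue forms with a window held any of the first 4 motifs, and 3 of the 4 held CCAAT. A match is a description of letters in the window.

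Between adult mutant ovary and testis members of the chain differed in both directions. Of 81 members 32 rose in the mutant ovaries and 26 fell (39.5% and 32.1%), against 37.5% and 24.3% of all genes. The median was 0.15, against 0.14 over all genes, and it ran from 0.03 (without mutant ovary 2) to 0.27 (without mutant ovary 1) when single arrays were left out. These comparisons share the testes and the ovaries with the others, so their differences are not separate evidence. In complex V 9 of 17 rose and none fell, in complex I 11 of 35 rose and 16 fell, and in complex IV 7 of 17 rose and 6 fell. At least 2-fold, 11 rose and 8 fell, against 20.2% and 15.8% of all genes. Centring each array on its median moved the median of all genes to 0.04 and that of the members to 0.06.

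The lowest members in mutant ovary against testis were the testis forms Cox8c (-3.52 ± 0.15), Cox7b2 (-3.41 ± 0.16) and Cox6b2 (-3.12 ± 0.26), followed by Ndufv2 and Ndufa4l2. Ndufv2 had levels of 7.83, 7.63 and 7.85 in the mutant ovaries, against 9.14, 9.28 and 9.37 in the testes (-1.49 ± 0.13, limma adjusted p = 2.69e-06), and Ndufa4l2 levels of 4.86, 4.29 and 4.49, against 5.91, 6.03 and 6.14 (-1.48 ± 0.17, limma adjusted p = 2.05e-05). The highest were Ndufa4 (9.82, 10.41 and 10.05 in the mutant ovaries, against 7.56, 7.85 and 7.74 in the testes, 2.38 ± 0.17), Ndufb11 (8.04, 8.60 and 8.28, against 6.06, 6.01 and 6.17, 2.23 ± 0.16), Cox7b (6.93, 7.73 and 6.83, against 4.74, 5.15 and 5.30, 2.10 ± 0.27), Cox7a1 (2.05 ± 0.23) and Cox6b1 (8.08, 8.94 and 8.71, against 6.57, 6.85 and 6.73, 1.86 ± 0.19). The groups did not overlap for any of these 10 genes. In this comparison 48 of the 58 calls held in every setting that included the gene, the 2-fold minimum aside. The same was true of 40 of the 50 calls in testis against wild-type ovary.

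In the adult mutant ovary the chain was slightly lower than in wild-type ovary, with 1 muscle form higher. Of 81 members 15 fell and 1 rose (18.5% and 1.23%), against 6.66% and 9.55% of all genes. None of them reached 2-fold, as 3.92% of all genes did upwards and 1.7% downwards, and the falls ran from -0.90 to -0.35. The median was -0.23, against -0.02 over all genes, and 21 of the 81 differences were positive, against 46.1% of all genes. Leaving out mutant ovary 2 gave 8 positive differences (median -0.34), leaving out wild-type ovary 1 gave 9 (-0.33) and leaving out wild-type ovary 2 gave 29 (-0.15). For 34 members all 3 mutant ovaries lay below both wild-type ovaries and for 1 above, against 20.6% and 19.3% of all genes. The falls were spread over the chain, with 6 in complex I, 1 in complex II, 1 in complex III, 2 in complex IV and 5 in complex V.

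The lowest was Sdhb, the iron-sulfur subunit of succinate dehydrogenase, with levels of 7.29, 7.39 and 7.37 in the mutant ovaries, against 8.19 and 8.30 in the wild-type ovaries (-0.90 ± 0.11, limma adjusted p = 0.000324). The other 3 subunits of that enzyme did not pass: the catalytic Sdha was at 10.06, 10.17 and 10.09, against 10.29 and 10.28, and the membrane anchors Sdhc at 8.42, 8.93 and 8.62, against 8.48 and 8.65, and Sdhd at 7.49, 7.67 and 7.58, against 7.87 and 8.00. Among ATP synthase subunits, Atp5d had levels of 9.88, 10.14 and 10.06 in the mutant ovaries, against 10.60 and 10.69 in the wild-type ovaries (-0.62 ± 0.10, limma adjusted p = 0.00226). Atp5pb, subunit b of the peripheral stalk, had levels of 8.22, 8.60 and 8.45, against 8.81 and 9.52 (-0.74 ± 0.19, limma adjusted p = 0.0262), where the wild-type ovaries differed from each other nearly as much as the groups did. Atp5e had levels of 7.07, 7.11 and 6.86, against 7.64 and 7.59 (-0.60 ± 0.16, limma adjusted p = 0.0281), and Atp5g2 levels of 9.50, 10.04 and 9.75, against 10.43 and 10.22 (-0.56 ± 0.15, limma adjusted p = 0.0278). In these genes every mutant ovary lay below both wild-type ovaries.

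In complex I, Ndufs5 had levels of 5.78, 6.34 and 6.10 in the mutant ovaries, against 6.81 and 6.78 in the wild-type ovaries (-0.72 ± 0.19, limma adjusted p = 0.0244). Ndufa10 had levels of 9.08, 8.71 and 9.15, against 9.59 and 9.79 (-0.71 ± 0.14, limma adjusted p = 0.00646). Ndufb7 had levels of 7.37, 7.53 and 7.52, against 8.01 and 8.18 (-0.62 ± 0.13, limma adjusted p = 0.00996). All 3 are accessory subunits, which surround the catalytic core, and their groups did not overlap. Ndufb5 had levels of 8.03, 8.30 and 8.47, against 8.70 and 8.85 (-0.51 ± 0.14, limma adjusted p = 0.0322). In complex III the small subunit Uqcrq had levels of 7.09, 7.35 and 7.32, against 7.60 and 8.09 (-0.59 ± 0.18, limma adjusted p = 0.0453). The 5 smallest falls were those of Ndufa12, Cox5b, Ndufs3, Cox4i1 and Atp5b, between -0.50 and -0.35.

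Cox7a1 was the single member that rose. Its levels were 6.85, 7.63 and 6.69 in the mutant ovaries, against 5.88 and 6.36 in the wild-type ovaries (0.93 ± 0.26, limma adjusted p = 0.0328), so that every mutant ovary lay above both wild-type ovaries, and mutant ovary 2 most. A few markers of muscle and fat rose with it. Myh6, a heart muscle myosin, was at 5.53, 6.45 and 5.45 in the mutant ovaries, against 4.54 and 4.25, Actn3 at 5.87, 5.96 and 6.74, against 5.27 and 5.08, and Cidea, a lipid droplet protein of brown fat, at 8.51, 8.23 and 8.10, against 4.23 and 4.36. Those 2 muscle genes were the ones of 7 striated muscle markers that rose, with none falling. The median difference of that list was 0.04 with 3 of 7 negative, and the mean of the list was 5.17 to 5.34 in the mutant ovaries, against 4.95 to 5.04. Of 7 adipocyte markers Cidea alone rose and none fell, but 4 of 7 differences were negative, with a median of -0.31, and 3 of them had an unadjusted p under 0.05. The mean of that list was 4.74 to 5.01 in the mutant ovaries, against 4.39 to 4.87, and Ucp1 was below the array medians in all 5 ovaries (3.78 to 3.89). Their part in the result was not tested.

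**Figure D3:**
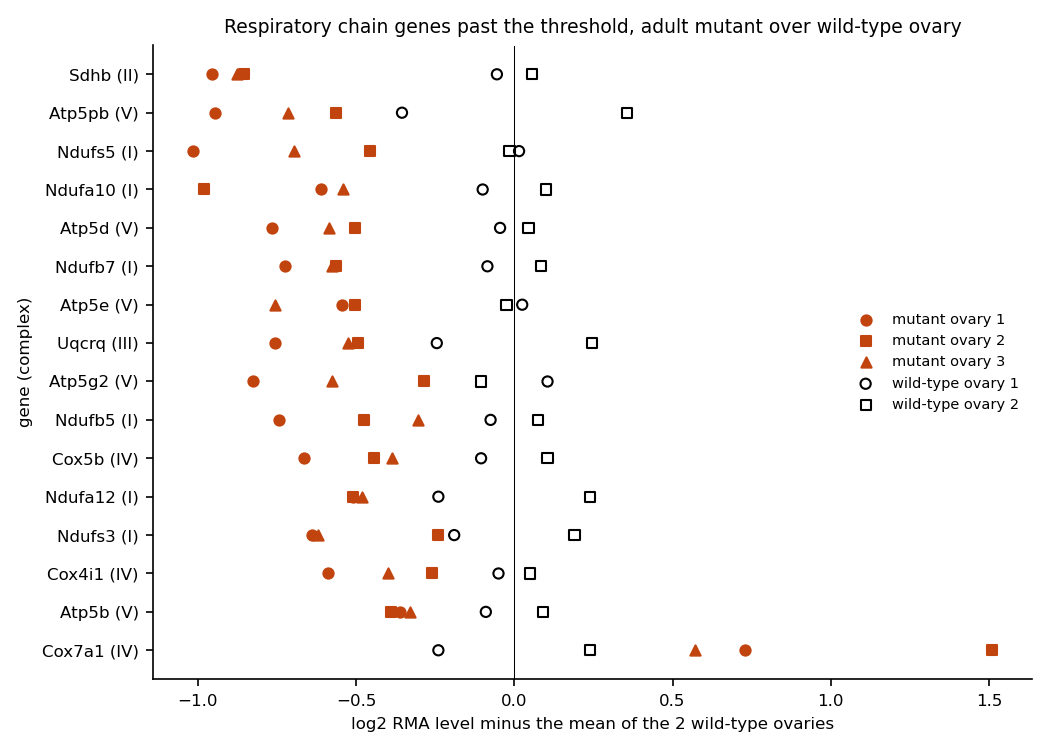
Log2 RMA level of each adult ovary minus the mean of the 2 wild-type ovaries (horizontal axis) for the 16 members that passed in mutant over wild-type ovary (vertical axis, complex in brackets), with filled symbols for the 3 mutant ovaries and open symbols for the 2 wild-type ovaries. Every mutant symbol of the upper 15 genes lies left of both wild-type symbols, and mutant ovary 1 is the lowest in 12 of them.

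This count depended on single arrays. With the 5 ovaries fitted alone 3 members fell and none rose, 5 fell when wild-type ovary 2 was left out and 22 when wild-type ovary 1 was, and 7 fell without mutant ovary 1 or without mutant ovary 3. Sdhb, Atp5d and Ndufb7 passed in all 12 settings, the 2-fold minimum aside (Sdhb between -0.95 and -0.84). Ndufa10 passed in 11 of them, Cox7a1 and Cox5b in 10, and the other 10 genes in 5 to 9. The members varied more among the mutant ovaries than genes in general did, with a median range of 0.44 over the 3 arrays, against 0.28 for all genes. Of the 3 mutant ovaries, ovary 1 was the lowest for 61 of 81 members and ovary 2 the highest for 60. These counts were not made over all genes, whose median level was 5.51, 5.60 and 5.51 in mutant ovaries 1 to 3, also highest in ovary 2. The median level of the members was 7.70, 8.12 and 7.85 in mutant ovaries 1 to 3, against 8.01 and 8.32 in wild-type ovaries 1 and 2, so these medians overlapped between the groups. Granulosa markers, 6 of 7 of which fell, had a mean level of 6.92 to 7.10 in the mutant ovaries, against 9.50 to 10.16 in the wild-type ovaries. That list and its falls include Foxl2, the gene that was removed. Of the 9 Sertoli markers 7 rose (8.49 to 8.77, against 6.37 to 6.82). Smooth muscle markers fell too, 5 of 5 (6.50 to 7.21, against 8.01 to 8.37). The part of this change in cell makeup in the falls of the chain was not tested.

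In the mutant ovary 2 genes next to the chain moved further than any member of it. Cycs, cytochrome c, which carries electrons from complex III to complex IV, had levels of 8.83, 9.15 and 8.92 in the mutant ovaries, 6.98, 7.06 and 7.19 in the testes, and 7.30 and 7.50 in the wild-type ovaries. It rose in mutant over wild-type ovary (1.57 ± 0.13, limma adjusted p = 3.21e-05). Vdac3, a channel of the outer mitochondrial membrane, had levels of 9.79, 10.00 and 9.82 in the mutant ovaries, 9.83, 9.86 and 9.85 in the testes, and 8.72 and 8.75 in the wild-type ovaries (1.13 ± 0.10 in mutant over wild-type ovary, limma adjusted p = 3.32e-05). Cycs was high in the mutant ovaries alone, whereas Vdac3 was as high in the testes as in the mutant ovaries (mutant over testis 0.03 ± 0.09). Of the list of 10 genes for cytochrome c, adenine nucleotide carriers and outer membrane channels these 2 rose in the mutant ovary and none fell. That list also holds the carrier Slc25a3 and Cyc1, a complex III gene that the symbol rule does not count as a member. Both passed in all 12 settings.

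Other pathway genes gave small changes in the mutant ovary. Of 16 genes of the citric acid cycle and pyruvate dehydrogenase, Sucla2 rose (8.26, 8.27 and 8.45 in the mutant ovaries, against 7.59 and 7.72, 0.67 ± 0.11, limma adjusted p = 0.00185) and Mdh2 (-0.54), Fh1 (-0.51) and Idh3g (-0.43) fell. Of 16 regulators of mitochondrial biogenesis, Ppargc1a, a coactivator of respiratory chain genes in muscle and brown fat, rose (5.02, 5.26 and 5.23, against 4.52 and 4.51, 0.66 ± 0.14, limma adjusted p = 0.0115), and Twnk, the helicase of mitochondrial DNA, fell (6.07, 6.22 and 6.12, against 7.04 and 6.78, -0.77 ± 0.13, limma adjusted p = 0.00286). Esrrb, a nuclear receptor related to the oestrogen receptors, fell as well, at levels below the array medians (3.81, 3.92 and 3.92, against 4.37 and 4.24, -0.42 ± 0.12, limma adjusted p = 0.032). In each of these 4 genes the groups did not overlap. Of 36 assembly factors 3 fell (8.33%, near the 6.66% of all genes) and none rose, with a median of -0.14. The lists were chosen with earlier results of these arrays known.

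In testis the testis forms in the same lists were far above their ovarian levels. Cyct, the testis form of cytochrome c, had levels of 7.21, 7.04 and 7.78 in the testes, against 3.16 and 3.06 in the wild-type ovaries (4.24 ± 0.21, limma adjusted p = 2.51e-08), while Cycs did not pass (-0.32 ± 0.13). Slc25a31, the germ cell form of the carrier that exchanges ADP for ATP, had levels of 8.70, 8.81 and 8.87 in the testes, against 4.79 and 3.62 (4.59 ± 0.30, limma adjusted p = 2.95e-07), and its relatives Slc25a4 and Slc25a5 fell (-1.82 ± 0.12 and -2.39 ± 0.13). Pdha2, the autosomal testis form of the pyruvate dehydrogenase alpha subunit, had levels of 7.02, 6.44 and 7.09 in the testes, against 2.76 and 2.82 (4.06 ± 0.19, limma adjusted p = 1.68e-08), and the X-linked Pdha1 fell, with 5.76, 5.95 and 5.87, against 8.52 and 8.77 (-2.78 ± 0.14, limma adjusted p = 2.78e-08). None of these groups overlapped. The ovarian levels of Cyct, Slc25a31 and Pdha2 lie below the array medians, so these log differences are compressed. Vdac1 fell (-2.45 ± 0.14), and Vdac2 (1.20 ± 0.12) and Vdac3 (1.11 ± 0.10) rose. The mutant ovaries had 3.12, 3.01 and 2.81 for Cyct, 4.21, 4.79 and 4.16 for Slc25a31 and 2.92, 2.73 and 2.93 for Pdha2, and none of the 3 passed against wild-type ovary.

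**Figure D4:**
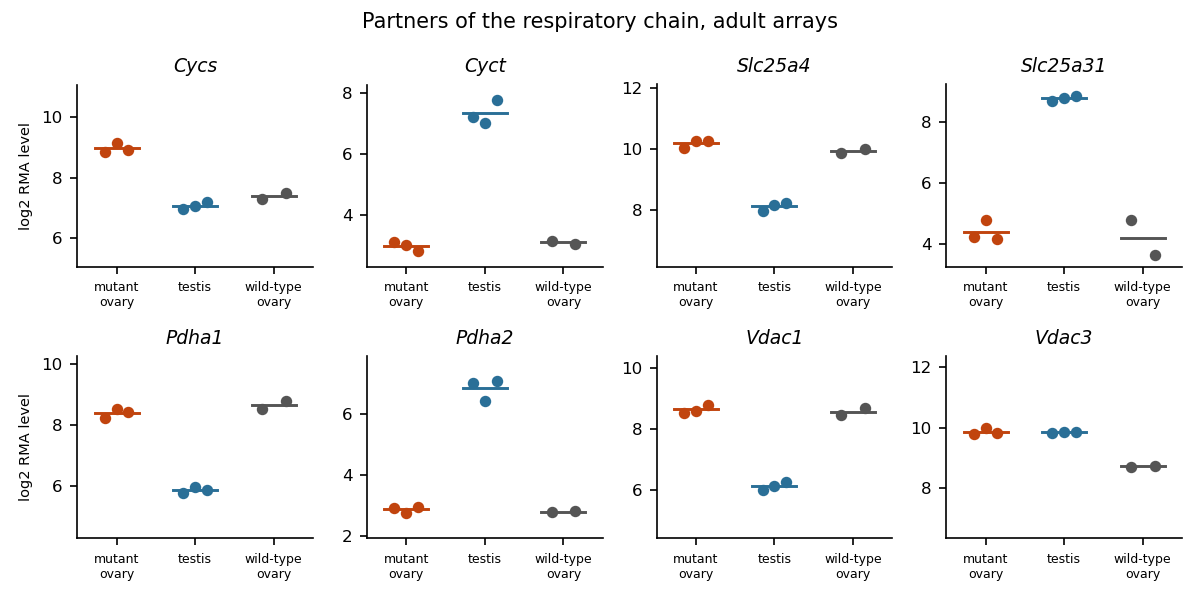
Log2 RMA levels (vertical axis, 6 log2 units high in each panel) of 8 genes of the pathway lists in the 3 mutant ovaries, 3 testes and 2 wild-type ovaries, one point per array with the group mean as a line. Cycs is high in the mutant ovaries alone, Vdac3 in mutant ovaries and testes, and Cyct, Slc25a31 and Pdha2 in the testes alone.

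Of the 36 assembly factors, 8 rose and 15 fell in testis (22.2% and 41.7%), near the 24.4% and 35.9% of all genes. The highest were Lyrm7 of complex III (3.59 ± 0.12) and Ndufaf3 of complex I (3.50 ± 0.16, with 9.96, 9.89 and 9.91 in the testes, against 6.26 and 6.58 in the wild-type ovaries). Of the 16 biogenesis regulators 4 rose and 6 fell (25.0% and 37.5%), also near those shares. Tfb1m, which methylates mitochondrial ribosomal RNA, had levels of 8.60, 8.69 and 8.75 in the testes, against 6.04 and 5.57 (2.87 ± 0.17, limma adjusted p = 9.55e-08), and Tfam, which packages mitochondrial DNA, levels of 7.53, 7.54 and 7.45, against 6.04 and 6.0 (1.49 ± 0.14, limma adjusted p = 4.87e-06). Both were high in every testis. Of 16 citric acid cycle and pyruvate dehydrogenase genes 4 rose and 9 fell (25.0% and 56.2%), with falls of Mdh2 (-2.23 ± 0.12) and Idh3g (-2.55 ± 0.11).

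In the P3 ovary no member of the chain changed past the test. Of 81 members 0 passed in KO against wild-type ovary, against 0.324% of all genes (59 of 18194), and 5 had an unadjusted p under 0.05, 4 of them higher and 1 lower, against 4.7% and 4.83% of all genes. The median difference was 0.12, against -0.01 over all genes, and 64 of 81 differences were positive, against 49.4% of all genes. By complex the medians were 0.06 in complex I, 0.24 in complex II, 0.13 in complex III, 0.19 in complex IV and 0.13 in complex V. For 37 members (45.7%) both KO pools lay above both wild-type pools and for 4 below, against 19.3% and 19.7% of all genes. After quantile normalization between the 4 arrays this held for 17 members (21.0%) and 6, against 19.6% and 18.9% of all genes, the median was 0.05 and 58 differences were positive. The size of the shift depended on the scaling of the arrays.

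The largest differences at P3 were those of the tissue forms Cox8b, Ndufa4l2 and Cox7a1. Cox8b had MAS5 signals of 84.7 and 138 in the KO pools, against 16.5 and 16.2 in the wild-type pools (1.95 ± 0.39, limma adjusted p = 0.131). Cox7a1 had signals of 735 and 799 in the KO pools, against 356 and 368 in the wild-type pools (1.05 ± 0.17, limma adjusted p = 0.0898). Sdhd, which is not a tissue form, had signals of 3150 and 3672, against 2449 and 2461 (0.47 ± 0.13, limma adjusted p = 0.267). The dimmer second probe set of Sdhd gave -0.02, so its 2 probe sets disagree. Ndufa4l2 was on the other side, with 17.2 and 18.0 in the KO pools, against 58.1 and 142 in the wild-type pools (-1.69 ± 0.46, limma adjusted p = 0.272). The groups of these 4 genes did not overlap, and none passed. The wild-type signals of Cox8b and the KO signals of Ndufa4l2 lie far below the array medians of 116.6 to 126.8. Cox7a1 passed in 2 of 13 settings, with the replicate numbers as a block and with genes of low level left out (adjusted p = 0.0304 to 0.584 over all settings).

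Fat markers stood on the same side as Cox8b and Cox7a1. Adipoq had signals of 221 and 159 in the KO pools, against 35.1 and 50.9 in the wild-type pools, Cidea 78.5 and 95.7, against 24.9 and 8.80, Fabp4 1433 and 744, against 332 and 554, and Ucp1 70.2 and 28.5, against 17.0 and 18.5. The mean log2 level of the 6 adipocyte markers measured was 6.62 to 6.92 in the KO pools and 5.74 to 5.77 in the wild-type pools, none of them passed, and Cidec overlapped between the groups. The mean of the 7 striated muscle markers was 6.70 to 6.75 in the KO pools and 6.33 to 6.81 in the wild-type pools. Their part in the values of Cox8b and Cox7a1 was not tested.

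**Figure D5:**
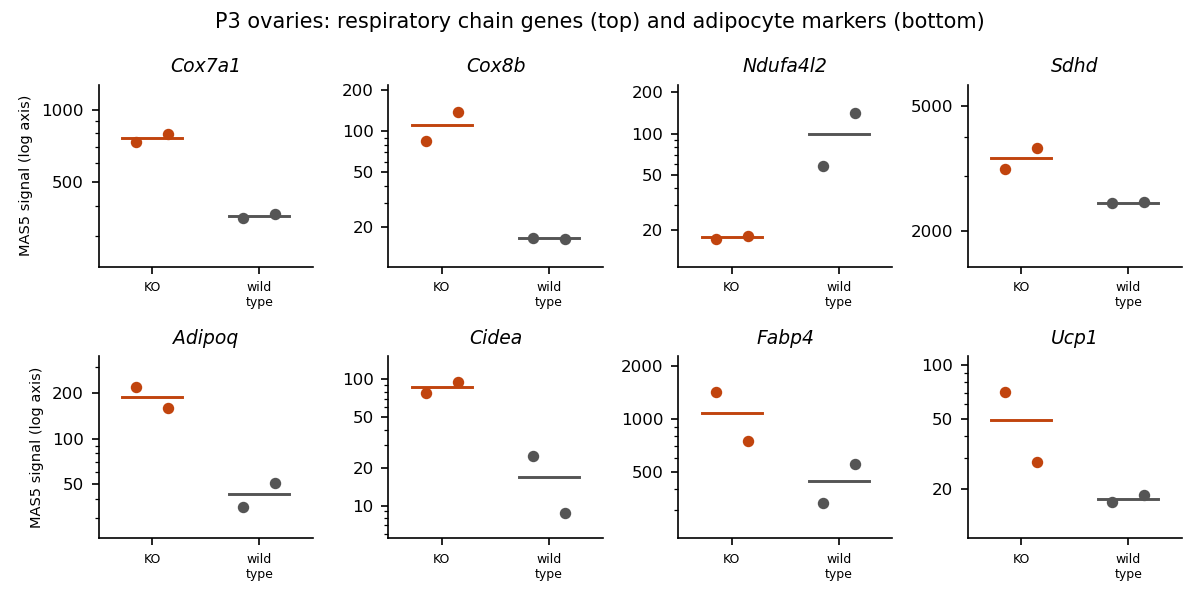
MAS5 signals (vertical axis, logarithmic, its own range in each panel) in the 2 KO pools and 2 wild-type pools at P3, one point per array with the group mean as a line, for 4 members in the top row and 4 adipocyte markers in the bottom row. Cox7a1, Cox8b, Sdhd and all 4 adipocyte markers are higher in both KO pools, and Ndufa4l2 is lower.

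The other members had small differences at P3. Without the tissue forms the 73 remaining differences ran from -0.54 (Ndufb1) to 0.47 (Sdhd). Sdhb had signals of 4675 and 4688 in the KO pools, against 4816 and 3902 in the wild-type pools, Atp5d 9257 and 9947, against 8780 and 8334, and Ndufb7 7007 and 7543, against 6950 and 6773. These 3 members, which fell in the adult mutant ovary in all 12 settings, had positive differences at P3 without passing the test. The testis forms did not pass either, with Cox6b2 at 4870 and 4735, against 4131 and 2986, Cox7b2 at 142 and 204, against 137 and 165, and Cox8c at 568 and 418, against 575 and 492. The 10 genes for cytochrome c and its neighbours gave no call, and Cycs had signals of 15960 and 16750 in the KO pools, against 16450 and 16630 (-0.02 ± 0.11).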

How the data were processed

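RNA of whole ovaries, or of part of a testis, was measured on arrays, 8 adult and 4 from P3. Per the submitters' processing notes, the authors deposited log2 RMA values from the Affymetrix Expression Console for the adult arrays. For P3 they deposited linear intensity values from MAS5, per those notes, although the labels' protocol names CodeLink labelling. The sources used here give no versions. The tables hold no detection calls, and the number of arrays limits the precision.

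Probe sets were named from the platform annotation, with symbols updated through the RefSeq table of GRCm38.p6. Those with several genes were left out, which removed Cox7c and Ndufb4 from the adult and Ndufa11 and Ndufs6 from the P3 members, and per gene the probe set with the highest mean was used (16 adult and 48 P3 members had several). Many respiratory chain genes have processed copies in the genome, and signal from such copies cannot be separated here. Tests were run in R 4.3.3 with limma 3.58.1 (lmFit and eBayes with a trend, two-sided, Benjamini-Hochberg over all genes), on 8 adult arrays together and on log2(signal + 16) of the 4 P3 arrays, and checked on simulated data. Adding 16 understates the change of dim genes.

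Members, lists and tests were chosen with earlier results of these data known. The rule for naming gave values per array to tissue and common isoforms, to members that passed in mutant or KO against wild-type ovary (the 10 largest where over 12 moved one way) and to the 5 largest differences in each direction; genes outside the chain came from the pathway and marker lists. Its clause on the highest and lowest level of each complex was dropped, since probe sets of different genes are not on one scale. Alternatives were the groups compared alone, a replicate block, leaving out each array, the mean of all probe sets, genes above the median level, centred arrays, no trend, a 2-fold minimum and, at P3, quantile normalization and pseudocounts of 1 and 64.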

Additional observations from a re-analysis of the deposited data

Results flagged for a closer look

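For 15 of the 78 members in both tables (19.2%, against 3.44% of all 16553 shared genes) every adult mutant ovary lay below both wild-type ovaries while both P3 KO pools lay above both wild-type pools, and 0 members (3.12% of all genes) showed the reverse. Of all 81 members 34 lay below without overlap in adults and 37 of 81 lay above at P3. The 15 are the genes shared by those 2 sets. Neither this count nor its contrast with 3.44% is evidence apart from the 2 shifts already described. The difference between the ages was not tested, since the tables come from different platforms. The P3 side depends on the scaling described above, and 17 of 81 members lay above after quantile normalization. The differences, adult first and P3 second, were -0.74 and 0.17 for Atp5pb, -0.63 and 0.15 for Ndufb9, -0.62 and 0.17 for Atp5d, -0.62 and 0.08 for Ndufb7, -0.50 and 0.09 for Cox5b and -0.50 and 0.10 for Ndufa12. They were -0.44 and 0.12 for Ndufv2, -0.39 and 0.24 for Atp5o, -0.36 and 0.47 for Sdhd, -0.35 and 0.21 for Atp5b, -0.32 and 0.13 for Atp5j2 and -0.32 and 0.16 for Uqcr11. The remaining 3 were Ndufb8 (-0.26 and 0.16), Uqcrc1 (-0.23 and 0.30) and Cox8b (-0.26 and 1.95), the last with adult levels below the array medians. Of these genes Atp5pb, Atp5d, Ndufb7, Cox5b, Ndufa12 and Atp5b passed in the adult comparison and none at P3. Another P3 probe set of Cox5b, Ndufa12, Ndufb8, Ndufb9, Ndufv2 and Sdhd gave a negative difference (-0.64 to -0.02).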

How the results depend on the processing

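Counts of calls in mutant over wild-type ovary moved most. Of 15 falls and 1 rise, 3 and 0 were left with the 5 ovaries fitted alone, 0 and 0 with a 2-fold minimum, and 5 to 22 falls when single arrays were left out. The 2-fold minimum left 4 rises and 15 falls in testis over wild-type ovary and 11 and 8 in mutant ovary over testis. At P3, 1 member (Cox7a1) rose with a replicate block and with genes above the median level, and the median of 0.12 became 0.08 with the mean of all probe sets, 0.05 with quantile normalization and 0.08 to 0.13 when single arrays were left out. The cause was not tested. Under some alternative 31 members changed sign in mutant over wild-type ovary, 11 in testis over wild-type ovary, 7 in mutant ovary over testis and 43 at P3, and none of them had passed. The widest ranges in mutant over wild-type ovary were -0.45 to 0.80 for Ndufc2 and -0.91 to 0.23 for Atp5md. For the isoforms whose values per array are given above, the fits without 1 array ran, in mutant over wild-type ovary, from -0.22 to 0.23 for Cox6a1, -0.07 to 0.10 for Cox6a2, -0.36 to 0.07 for Cox6b1, -0.04 to 0.18 for Cox7b2, -0.02 to 0.43 for Cox8c and -0.27 to 0.16 for Ndufa4. In mutant ovary over testis they ran from -0.05 to 0.11 for Cox4i1 (-0.07 with centred arrays) and from -0.06 to 0.01 for Cox8b. At P3 they ran from -0.004 to 0.10 for Cox4i1 (-0.08 with quantile normalization), -0.06 to 0.71 for Cox6a2, -0.08 to 0.41 for Cox7b2, -0.34 to 0.09 for Cox8c and -0.87 to 0.38 for Ndufa4. Over all genes, deviations from the group means correlated little between same-numbered samples (r from -0.003 to 0.079). With 2 or 3 arrays per group this cannot decide whether the numbers pair the samples. With the replicate block 14 members fell in mutant over wild-type ovary, 10 of them among the 15. Low signal limits Cox7b2 and Cox8b, whose adult ovarian levels lie below the array medians. Levels near or below those medians were also read for Ndufa4l2 in the mutant ovaries, Cox6a2 and Cox7a1 in the testes and Ppargc1a in the wild-type ovaries. The same holds on single arrays for Cox8c (4.85 in wild-type ovary 1) and Cox6b2 (5.02 in wild-type ovary 2). It also holds for Cox7b (4.74 in testis 1) and Cox4i2 (4.90 in testis 2).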
